A study of Drosophila melanogaster with 4 samples.

Results

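The glutathione S-transferase (GST) genes were examined in Drosophila melanogaster S2 cells after heat shock. Members were chosen by their FlyBase symbol, as every gene named GstD, GstE, GstO, GstS, GstT or GstZ with a number, together with Mgstl, and no measured value entered the choice. The rule took 36 of the 17697 genes in the tables, of which 11 belong to the delta class, 14 to epsilon, 3 to omega, 1 to sigma, 4 to theta, 2 to zeta and 1 to the microsomal type. Polyadenylated RNA was sequenced with 50 bp reads from 2 heat shock libraries and 2 untreated libraries. Heat shock cells were kept at 37 °C for 1 h and then returned to 27 °C for 1 h before lysis, whereas untreated cells stayed at 27 °C. Cells of both groups were of the same wild type line, which the labels trace to late embryos. Separate lysis is stated in the labels for the heat shock replicates only. The p-values therefore measure only the spread between these libraries, which may be technical.

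GST enzymes join the tripeptide glutathione to electrophilic compounds, which makes these compounds soluble and ready for export. The soluble classes share a thioredoxin-like domain that binds glutathione, while microsomal GSTs are membrane proteins of separate origin. The delta and epsilon classes expanded in insects, lie in tandem clusters and are known for the detoxification of insecticides and lipid peroxidation products. The transcription factor CncC, a product of cnc, activates several of them in flies under oxidative stress.

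The 4 libraries held 10221418 to 11988483 estimated counts. Transcripts of Hsp70 made up 12.9% and 14.3% of them in heat shock cells, against 0.0671% and 0.0699% in untreated cells. With such a load, the scaling of the libraries bears on the values given here. CPM are counts scaled to library size after TMM normalization, which assumes that most genes do not change, and scaling by total counts instead moved the all-gene median of the log2 fold change by -0.53. Of 8 blood cell markers, srp, crq, Col4a1 and vkg were above 1 TPM (an abundance that takes gene length into account) in every library, whereas Hml, Sr-CI and NimC1 stayed below 1 TPM in all of them. The 8 markers summed to 240 and 228 TPM in heat shock cells, against 356 and 362 TPM in untreated cells. Most of that difference lay in crq, with 112 and 107 TPM in heat shock cells and 214 and 213 TPM in untreated cells. With TMM scaling crq was lower and past the threshold, while srp, Col4a1 and vkg were higher and past it, although their TPM were lower in both heat shock libraries. Among 5 markers of other cells, tj was listed at 0, vas, Mhc and Fbp1 stayed below 1 TPM, and elav reached 22.2 to 30.6 TPM. Their part in the results was not tested.

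The GST transcripts of S2 cells came mostly from a few genes. GstT4, a theta class gene on the X chromosome, was the most abundant, with 164 and 183 TPM in heat shock cells and 264 and 251 TPM in untreated cells. GstE6 of the epsilon class followed, with 147 and 169 TPM in heat shock cells and 218 and 189 TPM in untreated cells. GstO2, Mgstl and GstD1 came next with means over the 4 libraries of 108.5, 107.2 and 106.8 TPM, and the order of these 3 genes was within the spread of the libraries. At the other end, 11 members had at most 14 counts in any library, and GstE10 had 3 in all 4 libraries together. At least 1 count was present for each of the 36 members.

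**Figure D1:**
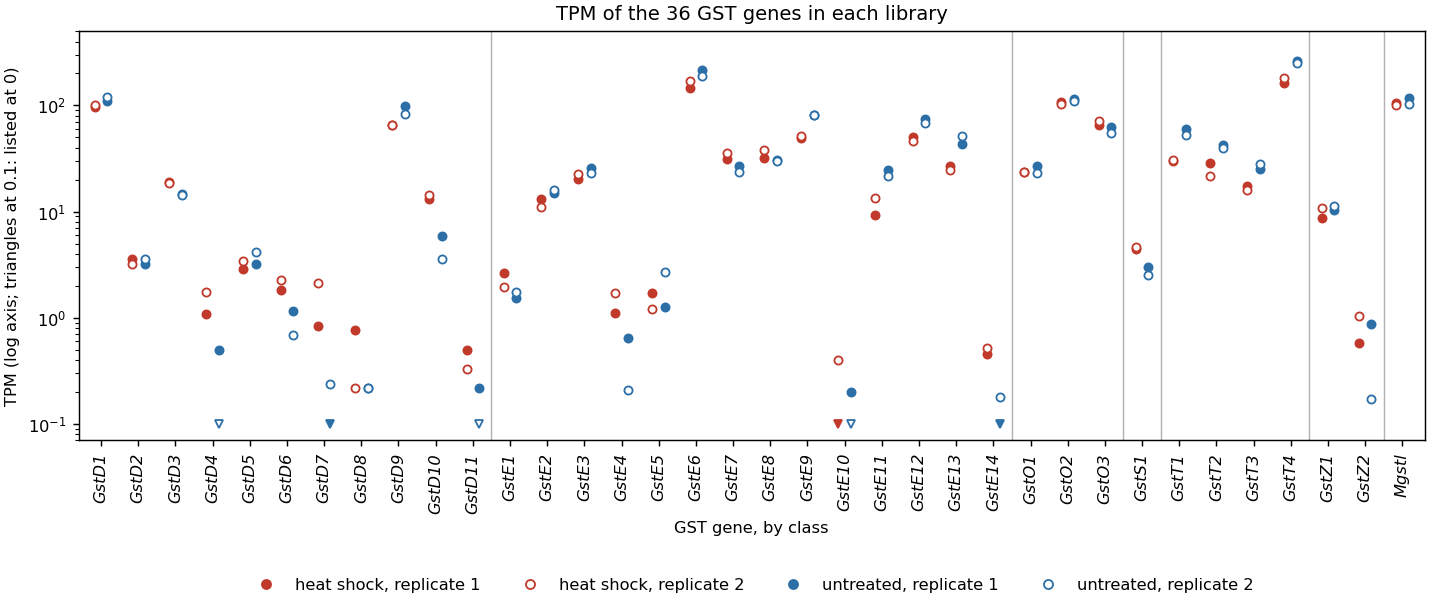
TPM of each GST gene (log axis) in the 4 libraries, with the genes in order of class; red points are heat shock libraries, blue points untreated libraries, and triangles mark values listed at 0. GstT4 has the highest mean level, at 215 TPM over the 4 libraries, and GstE10 the lowest, at 0.15 TPM, and TPM are not adjusted for the share of reads taken by heat shock genes.

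The classes did not keep their shares of the family. Theta genes made up 20.9% and 20.9% of the summed GST TPM in heat shock cells, against 25.9% and 26.2% in untreated cells. Omega genes made up 17.1% and 16.5% in heat shock cells, against 13.6% and 13.3% in untreated cells. The shares of the delta class were 17.9% and 17.8% in heat shock cells and 15.8% and 16.2% in untreated cells. Epsilon genes were the largest class throughout, with 33.6% and 34.9% in heat shock cells and 35.9% and 35.95% in untreated cells. Libraries of the groups did not overlap in these 4 shares, which do not depend on the scaling between libraries, and with 2 libraries against 2 an exact two-sided permutation test cannot go below p = 0.333.

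**Figure D2:**
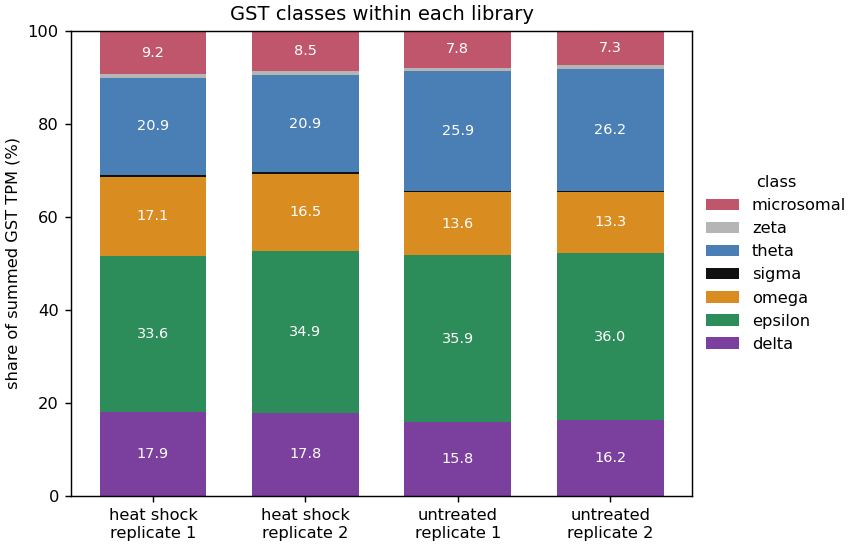
Share of each GST class in the summed GST TPM of a library (%), with heat shock libraries on the left and untreated libraries on the right. The omega part is 17.1% and 16.5% in heat shock cells and 13.6% and 13.3% in untreated cells, and the theta part is 20.9% and 20.9% against 25.9% and 26.2%.

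The question was next which members changed after heat shock. Of the 36 members, 25 had enough counts to be tested, and these passed the count filter in the libraries of both groups. With edgeR's quasi-likelihood test, adjusted over 8784 genes, 11 of the 25 had an adjusted p-value under 0.05. This is 44% of the members tested, against 40.5% of all genes tested. By direction, 10 members were higher (40%, against 21.6% of all genes) and 1 was lower (4%, against 18.9% of all genes). The split rested on the scaling. With library totals that leave out heat shock genes, 8 members were higher and 6 lower, beside 14.3% and 41.5% of all genes. With total counts 3 were higher and 11 lower, beside 8.86% and 71.6% of all genes. The median log2 fold change of the 25 members was 0.30, and that of all genes tested was -0.02. Under total-count scaling these medians were -0.24 and -0.56, so that the sign of the members turned. The difference of 0.32 between members and all genes stayed the same, because a change of scaling moves every gene by nearly the same amount. It is thus no check on the members. Without the low-count filter, or with DESeq2, the difference was 0.17. There the members were at 0.26 and 0.28, and the all-gene medians of 0.09 and 0.11 were over 14297 genes, with low ones included. In bulk RNA, a change in the number of cells that express a gene and a change in RNA per cell cannot be told apart.

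The summed CPM of the family was 668 ± 24.8 in heat shock cells and 584 ± 13.2 in untreated cells (SD, n = 2 libraries each), a ratio of 1.14. This ratio rests on the scaling, since its log2 value was 0.19 with TMM, 0.00 once heat shock genes were left out of the library totals and -0.34 with total counts. CPM values of the 2 groups did not overlap for 17 of the 25 members tested (68%), and for 72.2% of all genes tested. That separation is thus common in this experiment.

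**Figure D3:**
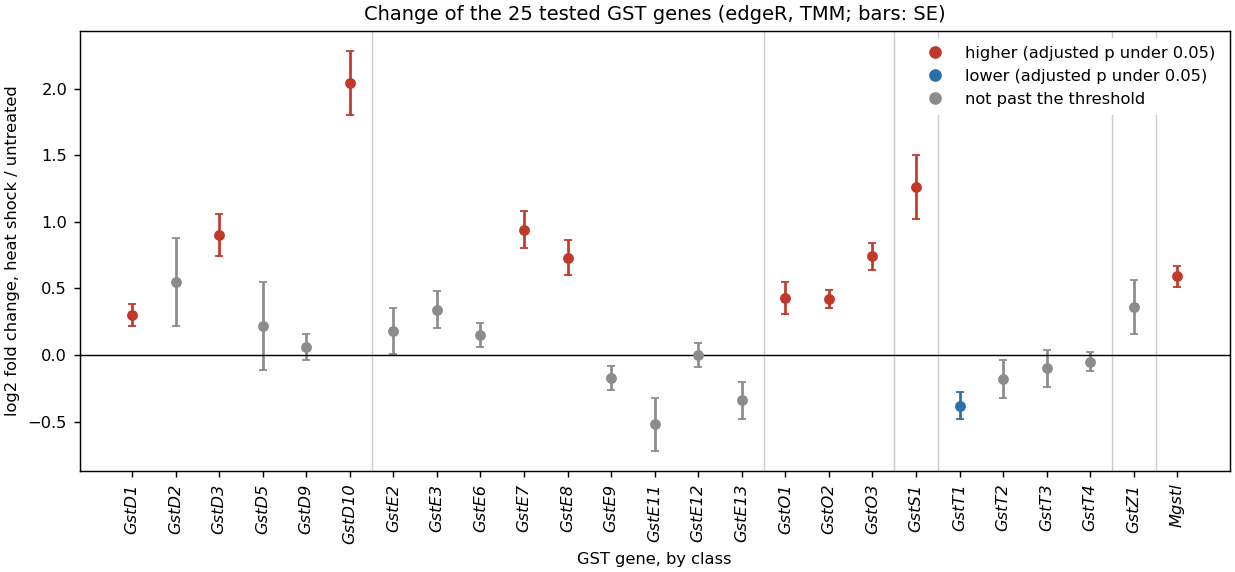
Log2 fold change of heat shock over untreated for the 25 tested GST genes, by class, with bars of 1 SE from edgeR with TMM scaling; red points were higher, the blue point lower, and grey points did not pass the adjusted threshold of 0.05. With this scaling GstD10 has the largest rise, at 2.04, and GstT1 the only called fall, at -0.38. With total counts 3 members are called higher and 11 lower, beside 8.86% and 71.6% of all genes.

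The delta class lies in a single cluster on 3R (positions 12364776 to 12385624, release 6), in which 11 genes share 20.8 kb. The cluster lies between the Hsp70 loci, 404 kb from Hsp70Ab on its left and 79.8 kb from Hsp70Ba on its right. GstD10 (12364776 to 12365735), at the outer end of the cluster, had the largest change among the 25 tested members. It had 7.18 and 7.89 CPM in heat shock cells, against 2.24 and 1.39 CPM in untreated cells. The log2 fold change was 2.04 ± 0.24 (SE, edgeR adjusted p = 2.3e-04), and the call was kept in all 15 alternatives. GstD10 is listed with 72 and 69 estimated counts in heat shock libraries and 28 and 17 in untreated libraries.

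GstD9, which starts 427 bp from GstD10 on the same strand, did not follow it. GstD9 had 32.6 and 32.8 CPM in heat shock cells and 33.7 and 29.3 CPM in untreated cells, at an edgeR log2 fold change of 0.06 ± 0.10 (SE, adjusted p = 0.678). Within each library, the ratio of GstD10 to GstD9 TPM was 0.1995 and 0.218 in heat shock cells, against 0.0603 and 0.0429 in untreated cells. The libraries of the groups lay apart in this ratio, which needs no scaling between libraries.

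GstD1, the most abundant delta gene and a common reporter of oxidative stress in flies, had 50.5 and 53.9 CPM in heat shock cells, against 40.3 and 44.6 CPM in untreated cells. Its rise was 0.30 ± 0.08 on the log2 scale (SE, edgeR adjusted p = 0.019). This call depended on the setting and was kept in 8 of 15 alternatives. The adjusted p-value was 0.0807 without the first untreated library and 0.104 without the second heat shock library, ranged from 0.00146 to 0.315 over all alternatives, and with total counts GstD1 was instead lower and past the threshold, at -0.24.

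The genes GstD2 to GstD8 run on the other strand in a row without introns. GstD3 (12373068 to 12373813) stood out among them in level. It had 9.07 and 8.92 CPM in heat shock cells, against 4.797 and 4.81 CPM in untreated cells, a log2 fold change of 0.90 ± 0.16 (SE, edgeR adjusted p = 0.00195). DESeq2 gave an adjusted p-value of 0.0654 for it, and the call was also lost with total counts. GstD2 and GstD5, whose counts hold some reads that fit other genes too, had 1.04 to 1.83 CPM over the 4 libraries and log2 fold changes of 0.55 ± 0.33 and 0.22 ± 0.33 (SE), not past the threshold.

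GstD4, GstD6, GstD7, GstD8 and GstD11 were too low to be tested. GstD7 had 4 and 9 counts in heat shock libraries, against 0 and 1 in untreated libraries, a ratio of 17.2 after scaling with a 95% exact binomial interval of 2.58 to 729. GstD4 had 5 and 7 counts in heat shock libraries, against 2 and 0 in untreated libraries, and GstD6 had 9 and 10 in heat shock libraries, against 5 and 3 in untreated libraries, and the ratios of both had intervals above 1 (1.76 to 72.8 and 1.31 to 8.27). These intervals cover counting error only. Counts of GstD8 and GstD11 were at most 4 in any library.

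**Figure D4:**
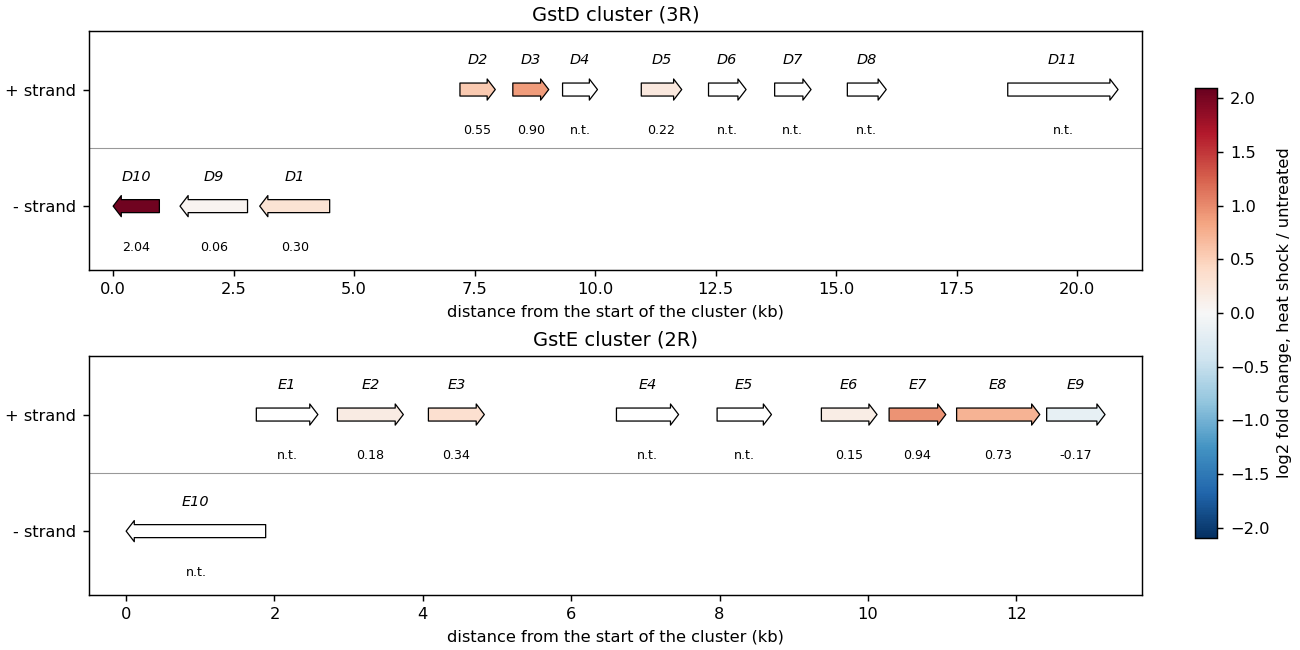
Maps of the delta and epsilon clusters by distance from the start of the cluster (kb), with arrows along the direction of transcription, coloured by the log2 fold change of heat shock over untreated, which is printed under each gene; n.t. and white arrows mark genes with too few counts. In the delta cluster GstD10 at 2.04 lies beside GstD9 at 0.06, and in the epsilon cluster GstE7 and GstE8 at 0.94 and 0.73 lie between GstE6 at 0.15 and GstE9 at -0.17.

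Of the 14 epsilon genes, 10 form a cluster of 13.2 kb on 2R (18396638 to 18409835). Neighbours in this cluster differed in their change. GstE7 (18406924 to 18407688) had 15.2 and 17.5 CPM in heat shock cells, against 8.96 and 8.07 CPM in untreated cells. Its log2 fold change was 0.94 ± 0.14 (SE, edgeR adjusted p = 6.5e-04), and it was called higher in all 15 alternatives. GstE8 (18407834 to 18408955) had 15.5 and 18.4 CPM in heat shock cells, against 10.2 and 10.2 CPM in untreated cells, with a log2 fold change of 0.73 ± 0.13 (SE, edgeR adjusted p = 0.00224). With total counts GstE8 was at 0.20 and not past the threshold, nor was it on TPM values.

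With TMM scaling, the genes on either side of this pair were more abundant and changed less. GstE6, the most abundant epsilon gene, had 69.8 and 81.0 CPM in heat shock cells and 71.6 and 63.9 CPM in untreated cells, so that the groups overlapped. GstE9 had 24.7 and 26.1 CPM in heat shock cells and 28.1 and 28.95 CPM in untreated cells, at an edgeR log2 fold change of -0.17 ± 0.09 (SE, adjusted p = 0.174). With total counts GstE6 and GstE9 were both lower and past the threshold, at -0.39 and -0.70. Library totals that leave out heat shock genes gave -0.36 for GstE9, also past it, and -0.04 for GstE6, not past it. GstE8 and GstE9 are 92 bp apart on the same strand. The ratio of GstE8 to GstE9 TPM was 0.651 and 0.732 in heat shock libraries, against 0.374 and 0.367 in untreated libraries. Likewise the ratio of GstE7 to GstE6 was 0.214 and 0.212 in heat shock libraries, against 0.123 and 0.124 in untreated libraries. The exon of GstE9 overlaps the gene imd on the opposite strand by 40 bp. The strand setting of the counting is not given in the sources used here, but reads were shared between opposite strands at GstT2.

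GstE3 had 9.77 and 10.98 CPM in heat shock cells, against 8.56 and 7.83 CPM in untreated cells, and did not pass the threshold (log2 fold change 0.34 ± 0.14, SE, edgeR adjusted p = 0.0896). GstE2 was at 0.18 ± 0.17 on the log2 scale (SE). GstE1, GstE4, GstE5 and GstE10 were not tested, with at most 14 counts in a library. GstE1 had 14 and 9.16 counts in heat shock libraries, against 7 and 8 in untreated libraries. GstE4 had 6 and 8 counts in heat shock libraries, against 3 and 1 in untreated libraries.

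The epsilon genes outside the cluster did not pass the threshold. GstE12 had 30.2 and 27.7 CPM in heat shock cells and 29.7 and 28.1 CPM in untreated cells, a log2 fold change of 0.00 ± 0.09 (SE). GstE13 had 15.2 and 13.8 CPM in heat shock cells, against 16.5 and 20.6 CPM in untreated cells, at -0.34 ± 0.14 (SE, edgeR adjusted p = 0.0732). GstE11 was at -0.52 ± 0.20 (SE, edgeR adjusted p = 0.061), with 45 and 57 counts in heat shock libraries, against 103 and 91 in untreated libraries. GstE11 and GstE13 lay close to the threshold. They were lower and past it in 9 and 8 of the 15 alternatives, GstE11 without the second untreated or the second heat shock library (-0.60 and -0.81) and GstE13 without the first untreated or the first heat shock library (-0.50 and -0.42). GstE14, which acts in the synthesis of the moulting hormone ecdysone, had 3 and 3 counts in heat shock libraries, against 0 and 1 in untreated libraries.

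All 3 omega genes were higher after heat shock with TMM scaling, although with total counts, and in TPM, none was past the threshold and the log2 fold changes of GstO1 and GstO2 lay below 0. Omega GSTs act as thiol transferases and dehydroascorbate reductases rather than by classical conjugation. GstO3 (3L, 8518885 to 8520295) had 37.3 and 40.8 CPM in heat shock cells, against 24.5 and 22.3 CPM in untreated cells, with a log2 fold change of 0.74 ± 0.10 (SE, edgeR adjusted p = 3.7e-04). GstO2 had 62.7 and 60.6 CPM in heat shock cells, against 46.9 and 45.6 CPM in untreated cells, a change of 0.42 ± 0.07 (SE, edgeR adjusted p = 0.00174). GstO1 had 14.5 and 14.5 CPM in heat shock cells, against 11.4 and 10.2 CPM in untreated cells, a change of 0.43 ± 0.12 (SE, edgeR adjusted p = 0.0215). For GstO3 the change with total counts was 0.20. The call of GstO1 was kept in 7 of 15 alternatives. It was also lost with DESeq2, at 0.42 (adjusted p = 0.308), with library totals that leave out heat shock genes, at 0.24 (adjusted p = 0.16), without either heat shock library, at 0.43 and 0.43, and without the second untreated library, at 0.35.

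GstO1 and GstO2, which are 240 bp apart on the same strand, kept their ratio. GstO1 to GstO2 TPM was 0.222 and 0.230 in heat shock libraries and 0.231 and 0.214 in untreated libraries, and the groups overlapped. GstO3 to GstO2 was 0.6195 and 0.702 in heat shock libraries, against 0.542 and 0.507 in untreated libraries.

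Between GstO3 and GstO2 lies se (sepia, 8520552 to 8521489), an omega class gene that makes a precursor of the red eye pigments and that the symbol rule leaves out. It was nearly silent in untreated cells. Listed counts of se were 46.3 and 33.3 in heat shock libraries, against 2 and 3 in untreated libraries. The gene passed the count filter only through the heat shock libraries, where it is high, so its change is given as a description without a test. The fitted log2 fold change was 4.30, and the ratio of summed counts after scaling was 20.8. Exons of se overlap those of GstO2 by 61 bp on the opposite strand, where reads cannot be told apart without strand. A ratio to another gene does not remove such reads from se. The ratio of se to GstO3 TPM was 0.133 and 0.0999 in heat shock libraries, against 0.00701 and 0.0117 in untreated libraries. Even so, se made up only 4.28% and 3.505% of the omega TPM in heat shock cells, against 0.214% and 0.344% in untreated cells.

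**Figure D5:**
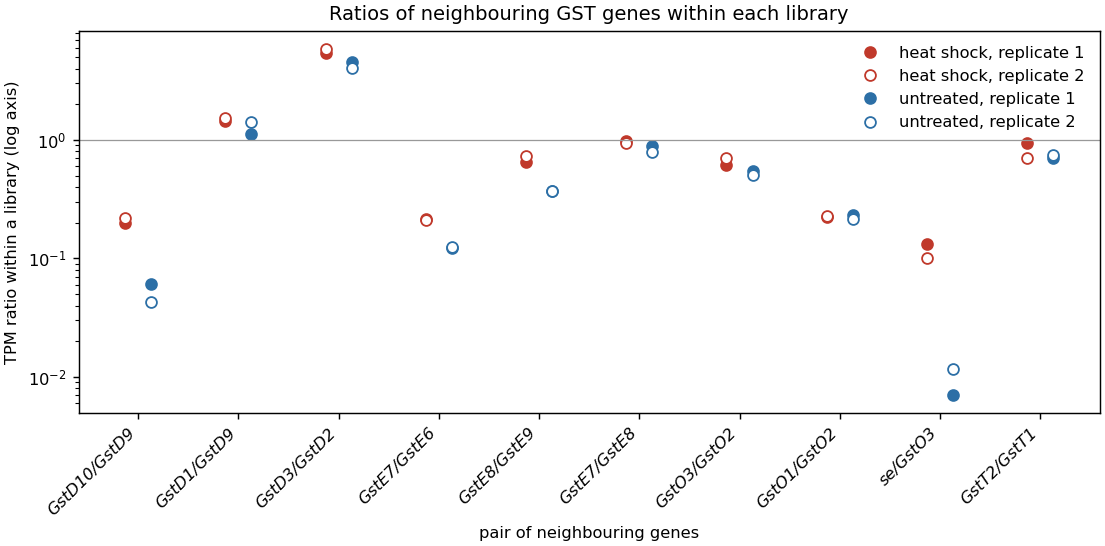
Ratio of TPM of neighbouring genes within each library (log axis), with heat shock libraries in red on the left and untreated libraries in blue on the right of each pair. The ratio of GstD10 to GstD9 is 0.1995 and 0.218 in heat shock cells and 0.0603 and 0.0429 in untreated cells, while that of GstO1 to GstO2 overlaps between the groups.

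The single sigma gene, GstS1 (2R, 17093246 to 17099501), is known from flight muscle and removes products of lipid peroxidation. In S2 cells it was low. GstS1 had 4.39 and 4.58 CPM in heat shock cells, against 1.92 and 1.79 CPM in untreated cells, with listed counts of 44 and 40 in heat shock libraries and 24 and 22 in untreated libraries. The log2 fold change was 1.26 ± 0.24 (SE, edgeR adjusted p = 0.00277), the second largest among the tested members. DESeq2 gave an adjusted p-value of 0.0832 for it, the only one of the 15 alternatives that lost the call.

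Mgstl (X, 21042125 to 21044107), the microsomal member, had 49.2 and 47.8 CPM in heat shock cells, against 33.8 and 30.7 CPM in untreated cells. The change was 0.59 ± 0.08 on the log2 scale (SE, edgeR adjusted p = 6.4e-04). In TPM (log2(TPM + 1)) the change was -0.09 and with total counts 0.05, neither past the threshold. An antisense gene that overlaps its exons by 345 bp had at most 6.85 counts in a library.

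The theta class held the only called fall. GstT1 (2R, 9605988 to 9607184) had 19.4 and 19.8 CPM in heat shock cells, against 26.6 and 24.2 CPM in untreated cells. Its log2 fold change was -0.38 ± 0.10 (SE, edgeR adjusted p = 0.0172). The direction was the same in all 15 alternatives, and only DESeq2 lost the call, with an adjusted p-value of 0.193. GstT2, 107 bp further on, had 16.2 and 12.2 CPM in heat shock cells and 16.5 and 15.9 CPM in untreated cells, and the groups overlapped. The exons of GstT2 overlap another gene by 223 bp.

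GstT3 had 9.87 and 9.49 CPM in heat shock cells and 9.68 and 11.1 CPM in untreated cells, and GstT4 had 130 and 146 CPM in heat shock cells and 145 and 142 CPM in untreated cells. Their log2 fold changes of -0.10 ± 0.14 and -0.05 ± 0.07 (SE) were not past the threshold. With total counts GstT2, GstT3 and GstT4 were lower and past it, at -0.71, -0.63 and -0.59. In the zeta class, whose enzymes isomerize maleylacetoacetate in tyrosine breakdown, GstZ1 was at 0.36 ± 0.20 (SE, edgeR adjusted p = 0.178) with 51 and 56 counts in heat shock libraries and 52 and 58 in untreated libraries. GstZ2 had 8 and 10 counts in heat shock libraries, against 6 and 2 in untreated libraries.

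The 11 members that were too low to test summed to 64 and 66 counts in heat shock libraries, against 31 and 28 in untreated libraries. For 9 of the 11, CPM in both heat shock libraries were above those in both untreated libraries, whereas this held for 36.5% of all genes with a count but too few for the test. That background was not matched to these members in depth. The 95% interval of the ratio, which covers counting error only, lay above 1 for 6 of the 11, without adjustment for their number. The matching share over all genes too low to test was not computed, so that count has no background to be read against. More genes of any kind had a count in heat shock libraries, 12865 and 12634, than in untreated libraries, 11738 and 11611. The part of this in the low GST counts was not tested.

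Members with and without introns were also compared, since the tandem delta and epsilon genes are largely intronless. In the annotation, exons of 16 members form a single block. Of these, 9 were tested and 3 were higher with TMM scaling. Among all single-exon genes tested, 23.4% were higher and 18.0% lower. Of the 20 members with introns, 16 were tested, with 7 higher and 1 lower. Among all genes with introns, 21.3% were higher and 19.0% lower. With total counts, 1 intronless member was higher and 2 were lower, beside 13.8% and 57.4% of single-exon genes. Of the members with introns, 2 were higher and 9 lower with total counts, beside 8.17% and 73.6% of genes with introns. The median log2 fold change with TMM scaling was 0.34 for the intronless members and 0.18 for the others.

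Reads that members shared with other genes, inside or outside the family, moved the counts little. The posterior SD of the estimated count, which measures how far reads could be moved between genes, was 0 in every library for 28 members. It exceeded 1% of the count in some library for 4 members, GstD2, GstD5, GstE1 and GstT2, and was 3.93% at most. For GstT2 the largest posterior SD was 3.08 counts, the same as for CG12926, a gene outside the family that overlaps its exons on the opposite strand. Reads were thus shared between opposite strands there.

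Genes that make and use glutathione were listed beside the family. Of 15 such genes, 14 passed the count filter in both groups, all but se. With TMM scaling, 6 of the 14 were higher and 2 lower, beside 21.6% and 18.9% of all genes, and their median log2 fold change was 0.07, beside -0.02 for all genes. With total counts 11 of the 14 were lower, beside 71.6% of all genes. The list was chosen with these data already analysed. The catalytic subunit of the rate-limiting enzyme of glutathione synthesis, Gclc, had 401 and 402 CPM in heat shock cells, against 327 and 330.5 CPM in untreated cells (log2 fold change 0.29 ± 0.06, SE, edgeR adjusted p = 0.0042). Its modifier subunit Gclm was at 0.02 ± 0.09 (SE). Glutathione synthetase is encoded by Gss1 and Gss2, which were listed with the same counts in every library and posterior SDs of 63.5 to 93.6 counts, so that these copies cannot be told apart. Both enter the 14 genes and their median with the same values.

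Trxr1, the thioredoxin reductase that takes the place of glutathione reductase in flies, was higher by 0.47 ± 0.07 on the log2 scale (SE, edgeR adjusted p = 9.6e-04). The peroxidase Gtpx was at 0.28 ± 0.06 (SE, edgeR adjusted p = 0.00665). MRP, an exporter of glutathione conjugates, had 132 and 131 CPM in heat shock cells, against 94.5 and 81.6 CPM in untreated cells, a log2 fold change of 0.58 ± 0.08 (SE, edgeR adjusted p = 5.2e-04).

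Of the CncC system, cnc and its partner maf-S were higher, at 0.38 ± 0.06 and 0.27 ± 0.09 (SE, edgeR adjusted p = 0.00119 and 0.0396), while the CncC inhibitor Keap1 was at 0.10 ± 0.11 (SE) and not past the threshold. The call of maf-S was kept in 7 of 15 alternatives. It was lost with DESeq2 (adjusted p = 0.194), limma-voom (adjusted p = 0.0535) and library totals that leave out heat shock genes (adjusted p = 0.48), as well as without the first untreated library, at 0.25, and without the second heat shock library, at 0.13. Glo1, a glyoxalase that uses glutathione to clear methylglyoxal, had 16.3 and 14.3 CPM in heat shock cells, against 24.2 and 23.2 CPM in untreated cells (log2 fold change -0.62 ± 0.11, SE, edgeR adjusted p = 0.00226). The other fall was that of gfzf, a nuclear zinc finger protein with a GST domain, at -0.22 ± 0.07 (SE, edgeR adjusted p = 0.0348). That call was kept in 10 of 15 alternatives. It was lost with DESeq2 (adjusted p = 0.153), DESeq2 size factors in edgeR (adjusted p = 0.0537) and a replicate block (adjusted p = 0.0809), as well as without the second untreated library, at -0.18, and without the second heat shock library, at -0.17. Grx1 and Ggt-1, a glutaredoxin and a gamma-glutamyl transferase, were at -0.06 ± 0.13 and -0.29 ± 0.30 (SE). Under total-count scaling, and in TPM, the log2 fold changes of Gclc, Trxr1, Gtpx, cnc and maf-S lay below 0, and MRP was above 0 but not past the threshold. Of these, Gclc, Gtpx and maf-S were lower and past the threshold in both. With library totals that leave out heat shock genes, Gclc and Gtpx were at 0.10 and 0.09, not past it (edgeR adjusted p = 0.164 and 0.243).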

How the data were processed

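Expression was measured in 2 heat shock and 2 untreated libraries. Per the labels, the authors trimmed reads with Trimmomatic 0.36, aligned them with STAR 2.6.1c to dm6 (BDGP6) and used RSEM 1.3.1. The deposited tables hold RSEM's estimated count per gene, for which the authors let the program share out reads that fit several genes, the posterior SD of this count, and TPM as the authors' program gave it. The methods also describe featureCounts and DESeq2. The strand setting of RSEM is not given in the sources used here, although reads were shared between GstT2 and CG12926 on opposite strands. The 2 pooled tables were not used.

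Symbols and coordinates came from the Ensembl annotation of the same assembly, with 17570 of 17697 genes matched. Estimated counts were rounded, filtered with filterByExpr (minimum count 10), scaled with TMM and compared, heat shock over untreated, in edgeR 4.0.16 (R 4.3.3) with its robust quasi-likelihood test (two-sided, Benjamini-Hochberg over all genes tested, threshold 0.05). SE came from the fold change and its F statistic. The pipeline was tested on simulated data in which a small part of the genes changed, as many up as down. That setting did not model the difference in Hsp70 load between the groups and cannot check the scaling. Counts of the replicate pairs differed by 6.21 (heat shock) and 5.00 (untreated) chi-square units per degree of freedom, more than sampling noise. Alternatives were DESeq2 1.42.0, limma 3.58.1 (voom, and TPM with pseudocounts of 1 and 0.1), other scalings and filters, a replicate block and leaving out each library. Values by library are given for members of at least 10 CPM in a group or past the threshold, and the main ones of the others. The members, the glutathione list, the neighbour pairs and the ratio intervals were chosen with earlier results of these data known. Promoter motifs and protein identities that had been planned were not analysed here, for want of sequences.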

Additional observations from a re-analysis of the deposited data

How the results depend on the processing

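The scaling between libraries was the choice that moved most values. Over all genes, 3556 were called with TMM scaling (1897 higher, 1659 lower), 7068 with total counts (778 higher, 6290 lower), 4907 with library totals without heat shock genes (1259 higher, 3648 lower), 6866 on log2(TPM + 1) (757 higher, 6109 lower), 6803 on log2(TPM + 0.1) (737 higher, 6066 lower) and 1808 with DESeq2 (1216 higher, 592 lower). Among GST genes, 6 of 36 were called with DESeq2, all higher, and 17 of 36 without the low-count filter, with 14 higher and 3 lower. These 36 include the 11 members too low for the main test. Over all genes, both settings covered 14297, of which 4515 were called without the filter (2295 higher, 2220 lower). On either TPM scale 15 of 25 members were called, with 4 higher and 11 lower. The median of the members was -0.24 with total counts, 0.11 with totals that leave out heat shock genes, and -0.19 and -0.22 on TPM with pseudocounts of 1 and 0.1. The log2 ratio of the summed family was -0.34 with total counts, 0.00 with totals that leave out heat shock genes and -0.32 in TPM.

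Signs turned with the scaling. With total counts, log2 fold changes were GstD1 (-0.24), GstD5 (-0.31), GstD9 (-0.48), GstE2 (-0.35), GstE3 (-0.20), GstE6 (-0.39), GstE12 (-0.53), GstO1 (-0.10), GstO2 (-0.12), GstZ1 (-0.17), Gclc (-0.25), Gclm (-0.52), Gss1 and Gss2 (-0.50 each), Trxr1 (-0.07), Gtpx (-0.26), cnc (-0.16), Keap1 (-0.44) and maf-S (-0.26). On TPM, with pseudocounts of 1 and 0.1, they were GstD1 (-0.22), GstD2 (-0.01), GstD5 (-0.19, -0.23), GstD9 (-0.45, -0.46), GstE2 (-0.32, -0.34), GstE3 (-0.17, -0.18), GstE6 (-0.36, -0.37), GstE12 (-0.55, -0.56), GstO1 (-0.08), GstO2 (-0.11), GstZ1 (-0.14, -0.15), Mgstl (-0.09), Gclc (-0.27), Gclm (-0.53, -0.54), Gss1 and Gss2 (-0.39, -0.41 each), Trxr1 (-0.05), Gtpx (-0.22), cnc (-0.15, -0.16), Keap1 (-0.42, -0.45) and maf-S (-0.25), where a single value holds for both. With totals that leave out heat shock genes they were GstD9 (-0.14), GstE2 (-0.01), GstE6 (-0.04), GstE12 (-0.19), Gclm (-0.17), Gss1 and Gss2 (-0.16 each) and Keap1 (-0.09). DESeq2 gave -0.01 for GstE12, and no low-count filter gave -0.04 for GstE12, -0.02 for Gclm and -0.01 for Gss1 and Gss2. The cause was not tested beyond the change of scale itself.

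Leaving out each library in turn gave a member median of 0.23 to 0.37 and a summed ratio of 0.15 to 0.23 on the log2 scale. It turned the sign of Gclm (-0.05 to 0.08), Grx1 (-0.13 to 0.00), Gss1 and Gss2 (-0.05 to 0.11 each), GstD9 (-0.05 to 0.15), GstE12 (-0.06 to 0.06), GstT4 (-0.14 to 0.03) and Keap1 (-0.02 to 0.21), given with their ranges, none of which was called in the full set. With 1 library left in a group, its spread is taken from the other group.

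With a replicate block, 12 members and 3272 genes were called. The labels give no meaning to the numbers, and deviations of same-numbered libraries had a correlation of -0.0763 over the tested genes and -0.325 over those of at least 10 CPM. A crossed replicate block, chosen after seeing the data, called 15 members and 4639 genes. GstD10 and GstE7 were called in all 15 alternatives, and 7 of the 11 called members kept their direction in all of them, GstD1, GstO1, GstO2 and Mgstl being the exceptions. Depth left 11 members untested, and 2 libraries a group limit the precision of every SE.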
